A study of Homo sapiens with 6 samples.

Results

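The Notch pathway genes described here are 10 members chosen by symbol: the receptors NOTCH1, NOTCH2 and NOTCH3, the ligands JAG1 and JAG2, the nuclear proteins RBPJ and MAML1, and the targets HES1, HES4 and HEY1. They are 10 of the 46427 genes in the gene table and have 35 of the 170322 transcripts in the transcript table. RNA sequencing of total RNA was carried out on 6 samples of MDA-MB-231/RR, a radioresistant derivative of the triple-negative breast cancer line MDA-MB-231: 3 samples co-treated with oTR (ortho-topolin riboside, a plant cytokinin riboside) and melatonin, and 3 control samples. Both groups were the same radioresistant line, grown in DMEM with serum, so neither the parental line nor cells given 1 compound alone enter the comparison. The sources used here do not give doses, treatment times or what the control cells received. The labels also do not say whether each sample was its own culture, so the spread behind each p-value may be technical. The comparison asks how the co-treatment moved the transcripts of the pathway.

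In Notch signalling, a ligand on one cell binds a receptor on its neighbour, which lets ADAM proteases and then gamma-secretase cut the receptor. The released intracellular domain enters the nucleus and joins the DNA-binding protein RBPJ and a Mastermind coactivator, and this complex switches on genes of the HES and HEY families. In breast cancer the pathway is known for its part in cell fate and in the upkeep of stem-like cells.

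Promoter sequence is shown for HES1 and HES4, because Notch targets are known by RBPJ sites near their start, and for JAG1, the member that moved most. The RefSeq table (GRCh38.p14) held promoter windows for 9 of the 10 members, and HEY1 was not matched. Capitals in the first pair of windows mark TGGGAA, the core that RBPJ binds, searched on both strands of the 250 bases upstream of each start. The HES1 window is chr3:194135898-194136147 on the plus strand, and the JAG1 window is chr20:10674000-10674249 on the minus strand.
HES1 upstream: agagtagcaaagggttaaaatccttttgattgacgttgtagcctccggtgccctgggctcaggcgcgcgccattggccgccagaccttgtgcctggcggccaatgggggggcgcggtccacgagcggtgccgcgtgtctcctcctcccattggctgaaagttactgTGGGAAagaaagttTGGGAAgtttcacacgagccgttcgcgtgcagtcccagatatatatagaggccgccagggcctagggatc
JAG1 upstream: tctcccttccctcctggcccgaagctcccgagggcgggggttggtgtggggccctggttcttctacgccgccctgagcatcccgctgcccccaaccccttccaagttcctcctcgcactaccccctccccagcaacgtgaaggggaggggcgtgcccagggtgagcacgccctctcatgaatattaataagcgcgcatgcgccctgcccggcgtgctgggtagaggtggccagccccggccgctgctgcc
HES1 held 2 copies of TGGGAA, 84 to 79 and 70 to 65 bases before its start, and HES4 held 1 copy, 76 to 71 bases before its start. The windows of NOTCH1, NOTCH2, NOTCH3, JAG1, JAG2 and MAML1 held none, and of 5 RBPJ windows 1 held 2 copies. The motif stood in 7321 of 35114 windows of this length in the table (20.8%), and at least 2 copies stood in 1017 (2.90%). In both HES1 and HES4 the copy farthest from the start was followed, after 16 bases, by TTCACA, which reads TGTGAA on the other strand, a variant RBPJ site in the opposite orientation. This arrangement is known at the human HES1 promoter as a paired site. The next lines show these stretches, 84 to 57 bases before the HES1 start and 76 to 49 bases before the HES4 start, with both sites in capitals. The HES4 stretch lies in the window chr1:1000098-1000347 (minus strand), which falls within the span of the deposited HES4 transcripts, since their outermost start is farther upstream.
HES1 paired site: TGGGAAagaaagtttgggaagtTTCACA
HES4 paired site: TGGGAAagaatgcggagccgggTTCACA
The pair was searched after these sequences had been read. With a gap of 10 to 25 bases, TGGGAA and TTCACA in this arrangement stood in 32 of the 35114 windows (0.0911%), and with a gap of 16 bases in 3, of which the other was that of ARHGAP22. TTCACA on either strand stood in 3879 windows. A match of letters describes the window and does not show binding.

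The deposited estimated counts summed to 50569611 to 72204161 in co-treated and 56521572 to 72309015 in control libraries. The first principal component held 36.3% of the variance and separated the groups. Nuclear ribosomal RNA took 0.479% to 1.07% of the co-treated counts and 0.294% to 0.370% of the control counts, with the highest share in co-treated replicate 2; the part of this difference in the results was not tested. The line's markers were present in both groups (VIM at 2380 to 2694 TPM in co-treated and 2037 to 2223 TPM in control libraries). ESR1, PGR and CDH1 were at or below 0.0243 TPM in every library, while GATA3, also listed as low or absent in this line, had 3.01 to 3.43 TPM in co-treated and 3.98 to 4.65 TPM in control libraries. The leukocyte and endothelial markers PTPRC, CD3E, CD14, PECAM1, VWF and CDH5 were at or below 0.270 TPM. Among the fibroblast markers, DCN was listed at 0, while COL1A1 reached 7.30 TPM in co-treated and 9.24 TPM in control libraries. PDGFRB, also of that set, had 2.58 to 2.71 TPM in co-treated and 2.36 to 2.56 TPM in control libraries. Single genes are given in CPM (estimated counts relative to the library total) scaled with relative log expression factors, and each adjusted p comes from edgeR's quasi-likelihood test with Benjamini-Hochberg adjustment over 16557 genes and a threshold of 0.05.

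After co-treatment 6 of the 10 members rose, none fell and 4 were not called. The ligands moved most: JAG1 was 1.58-fold and JAG2 1.53-fold higher than in control cells. The receptors NOTCH1 and NOTCH2 and the DNA-binding protein RBPJ rose by 1.11-fold to 1.22-fold, and the target HES4 rose by 1.35-fold. NOTCH3, MAML1, HES1 and HEY1 were not called. Across all tested genes edgeR called 33.7%, with 16.6% rising and 17.1% falling. The count of 0 falling members was also 0 with DESeq2, with limma voom and at an unadjusted p below 0.05, but MAML1 fell when the trend of fold changes with transcript length was removed (adjusted p 0.0249, edgeR). The groups did not overlap in CPM for 5 members (NOTCH1, NOTCH2, JAG1, JAG2 and RBPJ), all higher after co-treatment, against 47.4% of all tested genes, of which 23.3% were wholly higher and 24.1% wholly lower. The median log2 fold change was 0.15 over the 10 members and 0.002 over all tested genes. These are bulk samples, so a change in the share of cells of a kind and a change in RNA per cell cannot be told apart.

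**Figure D1:**
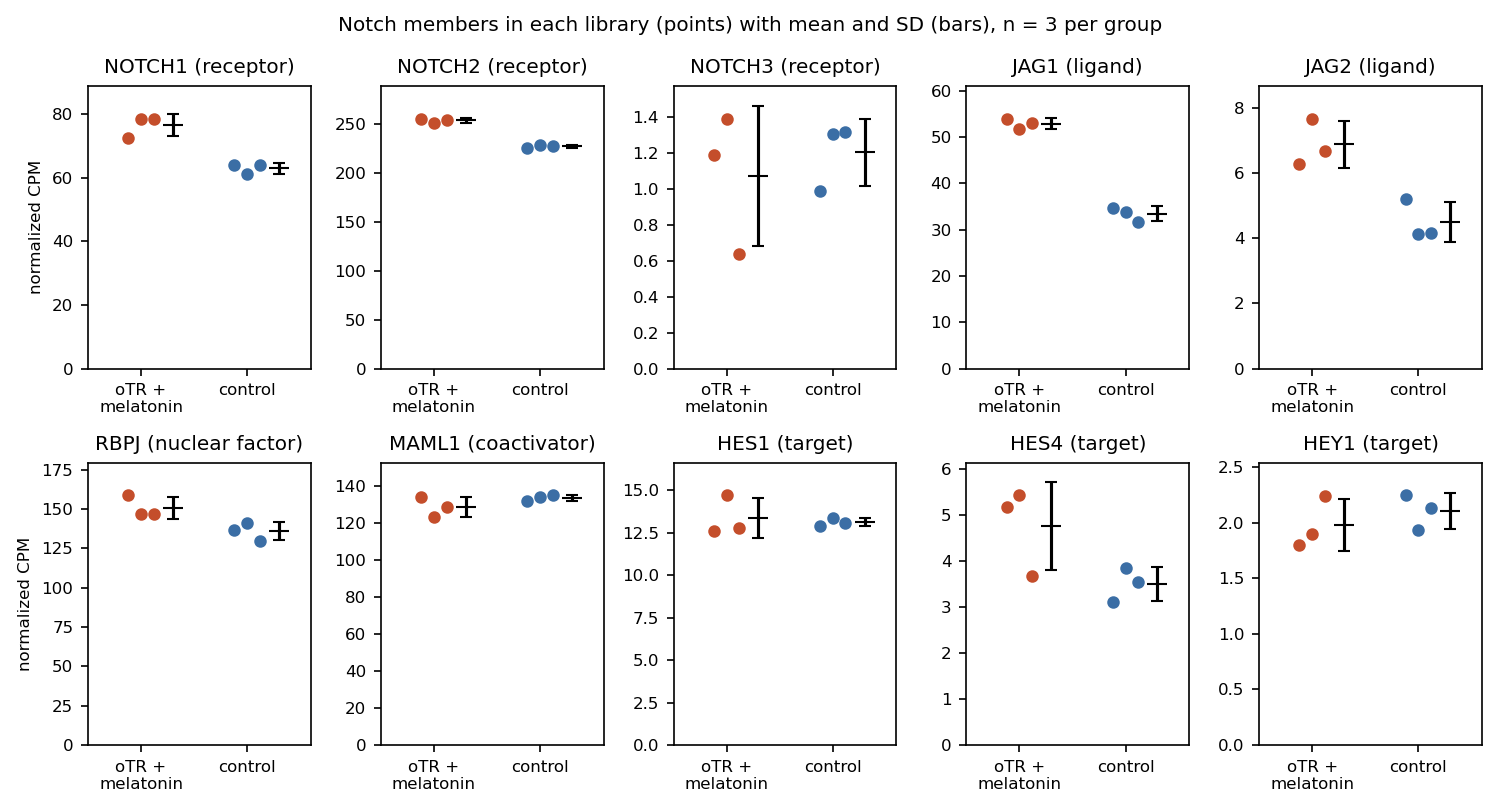
Normalized CPM of the 10 members in each library (points; oTR plus melatonin in red, control in blue), with mean and SD (bars, n = 3 per group), each panel starting at 0. In the JAG1 panel the co-treated libraries lie between 51.6 and 54.0 CPM and the control libraries between 31.6 and 34.7 CPM, while in the HES1 panel the groups overlap.

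NOTCH2 (gene ID 4853, chr1:119911553-120069703 in GRCh38) is one of the 4 mammalian receptors and was the most abundant one here. It had 255, 251 and 254 CPM in co-treated libraries, against 225, 228 and 227 CPM in control libraries. The groups did not overlap and lay far apart for their spread. The log2 fold change was 0.16 ± 0.04 (SE; adjusted p 0.00999, edgeR), a fold of 1.12, and its size stood at the 43.5th percentile of all tested genes. NOTCH2 has the near-identical partial copies NOTCH2NLA, NOTCH2NLB, NOTCH2NLC and NOTCH2NLR, with which it can share reads. The copies were not called, and none exceeded 13.3 CPM in any library, with log2 fold changes between -0.02 and 0.19.

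NOTCH1 (gene ID 4851, chr9:136494433-136546048), a receptor known both as an oncogene and as a tumour suppressor depending on the tissue, had 72.6, 78.6 and 78.7 CPM in co-treated libraries, against 63.9, 61.1 and 64.1 CPM in control libraries. All co-treated libraries were above all control libraries. The log2 fold change was 0.28 ± 0.05 (SE; adjusted p 0.00146, edgeR), at the 66.9th percentile of size among tested genes. NOTCH3 (gene ID 4854, chr19:15159038-15200995), a receptor best known from vascular smooth muscle, was close to the limit of detection, with 47 to 72 estimated counts in co-treated and 55 to 93 in control libraries. It had 1.19, 1.39 and 0.640 CPM in co-treated libraries, against 0.991, 1.30 and 1.32 CPM in control libraries. The ranges overlapped, with co-treated replicate 3 lowest, and no difference was called (log2 fold change -0.19 ± 0.27 SE; adjusted p 0.622, edgeR).

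JAG1 (gene ID 182, chr20:10637684-10673999), a membrane ligand of the Jagged class, showed the largest change of the 10 members. It had 54.0, 51.6 and 53.0 CPM in co-treated libraries, against 34.7, 33.8 and 31.6 CPM in control libraries. Each group stayed within a few CPM and the gap between the groups was several times that spread. The log2 fold change was 0.66 ± 0.05 (SE; adjusted p 1.54e-05, edgeR), at the 92.6th percentile of size. JAG2 (gene ID 3714, chr14:105140981-105168776), the second Jagged ligand, was far less abundant, with 6.30, 7.68 and 6.69 CPM in co-treated libraries, against 5.22, 4.14 and 4.17 CPM in control libraries. The groups did not overlap, though co-treated replicate 1 and control replicate 1 came within about 1 CPM of each other. The log2 fold change was 0.61 ± 0.12 (SE; adjusted p 0.00260, edgeR). Both ligands were called under all 20 other settings run, at log2 fold changes of 0.58 to 0.79 for JAG1 and 0.51 to 0.73 for JAG2.

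RBPJ (gene ID 3516, chr4:26163458-26435131), the DNA-binding protein on which the Notch complex assembles, had 159, 147 and 147 CPM in co-treated libraries, against 137, 141 and 130 CPM in control libraries. The groups did not overlap, but the gap between them was smaller than the distance from lowest to highest library within either. The log2 fold change was 0.15 ± 0.05 (SE; adjusted p 0.0384, edgeR). The call was lost without co-treated replicate 1, 2 or 3 or control replicate 1 or 3 (adjusted p 0.0540 to 0.134). MAML1 (gene ID 9794, chr5:179732822-179777283), a Mastermind coactivator of the complex, had 134, 123 and 128 CPM in co-treated libraries, against 132, 134 and 135 CPM in control libraries. The ranges overlapped and the gene was not called (log2 fold change -0.06 ± 0.05 SE; adjusted p 0.381, edgeR).

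HES4 (gene ID 57801, chr1:998962-1001052), a helix-loop-helix repressor present in humans and lacking in mice, had 5.18, 5.44 and 3.68 CPM in co-treated libraries, against 3.12, 3.86 and 3.54 CPM in control libraries. Co-treated replicates 1 and 2 were above every control library, while co-treated replicate 3 lay below control replicate 2. The log2 fold change was 0.43 ± 0.15 (SE; adjusted p 0.0489, edgeR), just inside the threshold. The call was lost without co-treated replicate 1 or 2 or any 1 control replicate (adjusted p 0.0598 to 0.167), and with limma voom (adjusted p 0.0933). Without co-treated replicate 3 the log2 fold change was 0.60 (adjusted p 0.00680, edgeR).

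HES1 (gene ID 3280, chr3:194136148-194138732), the classical Notch target and a repressor of differentiation genes, had 12.6, 14.7 and 12.7 CPM in co-treated libraries, against 12.9, 13.3 and 13.1 CPM in control libraries. Co-treated replicate 2 was the highest library and the other co-treated libraries were the lowest. No difference was called (log2 fold change 0.03 ± 0.08 SE; adjusted p 0.825, edgeR). In TPM, a scale on which the median of all tested genes also lay higher, HES1 had 18.9, 21.6 and 18.4 in co-treated libraries, against 17.5, 18.1 and 17.2 in control libraries, without overlap. HEY1 (gene ID 23462, on chromosome 8), a hairy-related repressor known from vascular development, had 1.80, 1.897 and 2.25 CPM in co-treated libraries, against 2.25, 1.94 and 2.13 CPM in control libraries. The ranges overlapped (log2 fold change -0.08 ± 0.15 SE; adjusted p 0.702, edgeR). HES1 and HES4, which share the paired site shown above, thus had different calls, but the difference between their fold changes was not tested.

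Levels of different genes were compared per length, in the authors' TPM, which divide by transcript length and give each library the same sum. RBPJ was highest, at 62.1 ± 3.46 TPM in co-treated and 51.1 ± 3.15 TPM in control libraries (SD, n = 3 each). MAML1 followed at 51.9 ± 2.90 TPM in co-treated and 49.2 ± 0.642 TPM in control libraries, and NOTCH2 at 51.5 ± 1.16 TPM in co-treated and 42.1 ± 0.860 TPM in control libraries. The ranges of MAML1 and NOTCH2 overlapped in co-treated libraries, and those of RBPJ and MAML1 in control libraries. In co-treated libraries JAG1 (20.7 ± 0.724 TPM), HES1 (19.6 ± 1.72 TPM) and NOTCH1 (18.6 ± 0.559 TPM) formed a group whose neighbouring ranges overlapped. In control libraries the same genes stood apart, in the order HES1 (17.6 ± 0.488 TPM), NOTCH1 (13.9 ± 0.325 TPM) and JAG1 (11.9 ± 0.810 TPM). By mean, JAG1 thus came first of these 3 after co-treatment and last in control cells. HES4 had 10.1 ± 2.29 TPM in co-treated and 6.82 ± 0.618 TPM in control libraries. JAG2 had 2.84 ± 0.327 TPM in co-treated and 1.69 ± 0.237 TPM in control libraries. HEY1, at 2.06 ± 0.221 TPM in co-treated and 1.97 ± 0.142 TPM in control libraries, lay below JAG2 after co-treatment and overlapped with it in control cells. NOTCH3 was lowest, at 0.286 ± 0.107 TPM in co-treated and 0.290 ± 0.0428 TPM in control libraries.

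**Figure D2:**
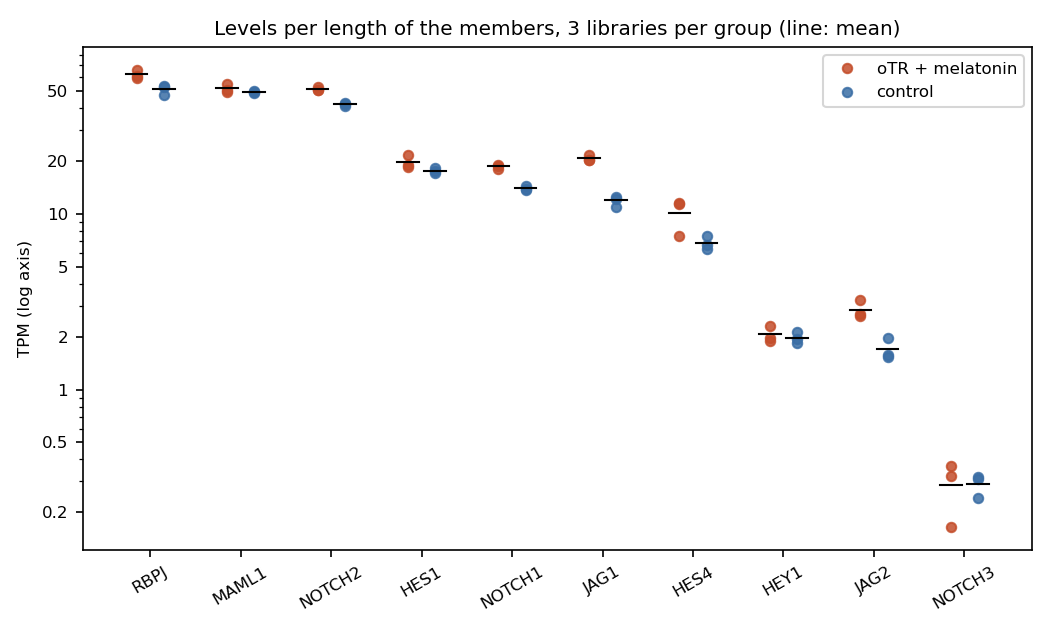
TPM of the 10 members on a log axis in each library (points; oTR plus melatonin to the left in red, control to the right in blue; line, mean of 3), in the order of the control means. The levels span from RBPJ, at 62.1 TPM in co-treated libraries, to NOTCH3, at 0.286 TPM, and the mean of JAG1 lies above those of HES1 and NOTCH1 in co-treated but not in control libraries.

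The makeup of the receptor and ligand transcripts differed by little between the groups, while their balance moved. NOTCH2 gave 73.2% ± 0.987 of the summed TPM of the 3 receptors in co-treated and 74.7% ± 0.553 in control libraries (SD, n = 3 each). The NOTCH2 share was lower in each co-treated library (at most 74.3%) than in any control library (at least 74.4%). JAG1 gave 87.9% ± 1.503 of the summed TPM of both Jagged ligands in co-treated and 87.6% ± 1.07 in control libraries. The 3 receptors summed to 70.4 ± 0.741 TPM in co-treated and 56.4 ± 0.887 TPM in control libraries. The ligands summed to 23.5 ± 0.547 TPM in co-treated and 13.6 ± 0.994 TPM in control libraries. On the log2(TPM + 1) scale the median log2 fold change of all tested genes was also above 0, at 0.09. The part of that shift in these sums was not tested. Receptor TPM over ligand TPM was 2.95, 3.02 and 3.03 in co-treated libraries, against 3.93, 4.13 and 4.42 in control libraries. The ratio was therefore lower in each co-treated library than in any control library; as these ratios were chosen with the members' values known, no test is given. HES1 gave 61.9% ± 3.32 of the summed TPM of the 3 targets in co-treated and 66.7% ± 0.738 in control libraries. Its share, too, was lower in each co-treated library (at most 65.3%) than in any control library (at least 66.0%).

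Fold changes in these libraries followed transcript length, and most members are long. The median log2 fold change was -0.13 over the 3228 tested genes of up to 1500 bases, -0.04 over 5218 genes of 1500 to 3000 bases, 0.03 over 4384 genes of 3000 to 5000 bases, 0.09 over 2630 genes of 5000 to 8000 bases and 0.14 over 1097 longer genes. The receptors are 8680 bases (NOTCH3) to 11398 bases (NOTCH2) long, JAG1, JAG2, MAML1 and RBPJ 5615 to 5940 bases, and HES1, HES4 and HEY1 1086 to 2226 bases. With the length trend removed in each library, 3 members rose (JAG1, JAG2 and HES4) and 1 fell (MAML1), against 15.1% rising and 17.6% falling among all genes. NOTCH2 then had a log2 fold change of 0.02 (adjusted p 0.747, edgeR), NOTCH1 of 0.16 (adjusted p 0.0601) and RBPJ of 0.07 (adjusted p 0.230). MAML1 fell by 0.14 on the log2 scale (adjusted p 0.0249), and the median over the 10 members was 0.08. JAG1 had 0.58, JAG2 0.54 and HES4 0.55. With trends in length and in GC content both removed, 4 members rose (NOTCH1, JAG1, JAG2 and HES4) and none fell, against 18.1% rising and 20.7% falling among 15075 genes. RBPJ, which has the lowest GC content of the 10 (38.0%), then had -0.0043 (adjusted p 0.930, edgeR). The part of the length trend in the results of NOTCH1, NOTCH2 and RBPJ was measured only through these removals, and what gave rise to the trend was not tested. On the log2(TPM + 1) scale the same 6 members rose, but there 27.3% of all genes rose and the median of all tested genes lay at 0.09.

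**Figure D3:**
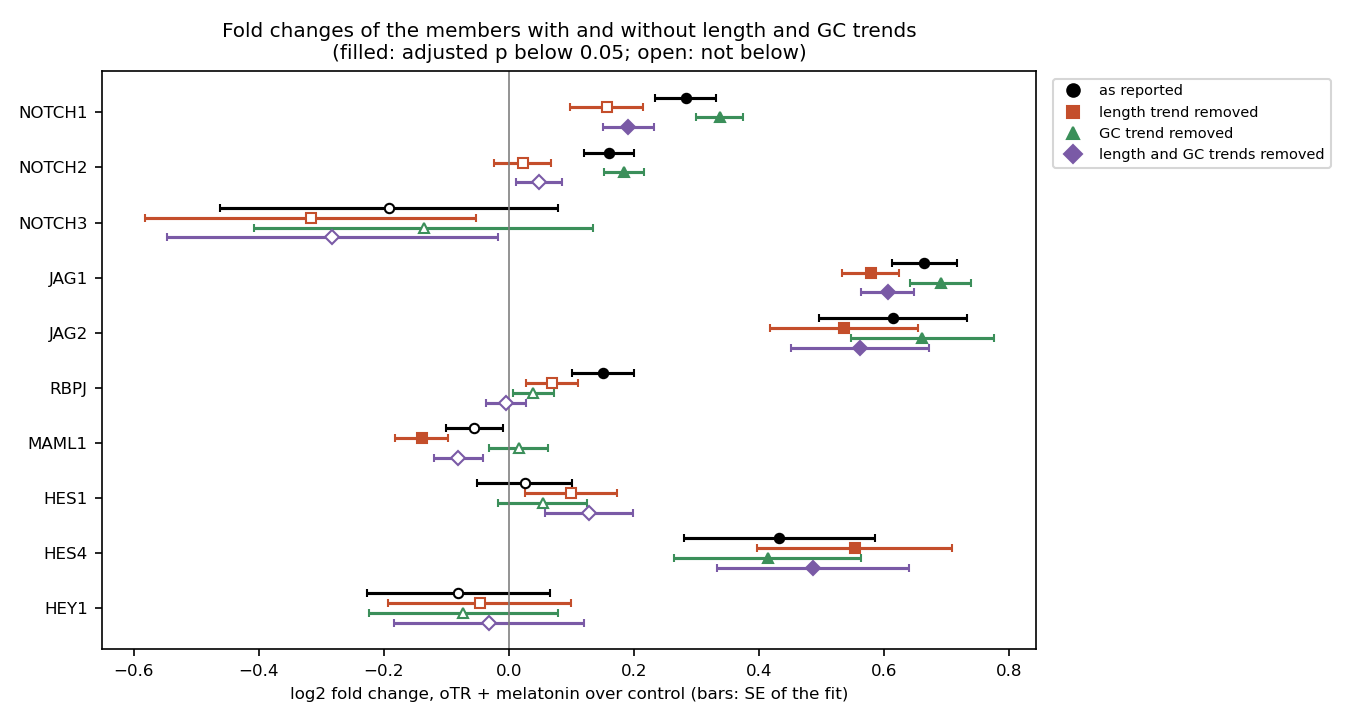
Log2 fold changes of the 10 members, oTR plus melatonin over control, as reported and with the trend in length, in GC content or in both taken out (bars, SE of the fit; filled, adjusted p below 0.05). JAG1, JAG2 and HES4 stay above 0 and filled in all 4 fits, while NOTCH2 drops to 0.02 with the length trend removed and RBPJ to -0.0043 with both removed.

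The other genes of the pathway were taken from a list of 87 genes in 8 roles, all found in the gene table. Outside the 10 members it held 77 genes, of which 69 were tested, 19 rose and 8 fell (27.5% and 11.6%, against 16.6% and 17.1% of all tested genes). Their median log2 fold change was 0.08, and 0.01 with the length trend removed, when 16 rose and 14 fell. With the members, the list had 25 rising and 8 falling genes, but 33 and 2 on the log2(TPM + 1) scale and 19 and 15 with the length trend removed. Among all tested genes 4516 rose and 1339 fell on the log2(TPM + 1) scale, and 2497 rose and 2909 fell with the length trend removed. DLL1, DLL3, DLK1, HES5, TLE4, DTX1, DTX3 and DTX4 had too few counts to be tested. Among the ligands, DLL4, a Delta-class ligand known from sprouting vessels, rose to 1.91 ± 0.162 CPM in co-treated, against 0.985 ± 0.139 CPM in control libraries (SD, n = 3 each; log2 fold change 0.94 ± 0.17 SE; adjusted p 0.00185, edgeR). DLL4 is at a low level, and all 3 called ligands of the list, DLL4, JAG1 and JAG2, rose. The fourth receptor, NOTCH4, named after its value was seen, had 0.614 ± 0.0972 CPM in co-treated and 0.766 ± 0.242 CPM in control libraries and was not called. It held 261 estimated counts over the 6 libraries and overlaps GPSM3 by 681 bases, with which it can share reads. GPSM3 had 764 to 1497 estimated counts per library.

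Of the 9 genes of receptor processing, 4 rose and 1 fell. ADAM17, a protease of the first activating cut, had 81.2 ± 3.33 CPM in co-treated and 67.9 ± 2.36 CPM in control libraries (log2 fold change 0.26; it overlaps the gene IAH1, with which it can share reads). APH1A, a subunit of gamma-secretase, fell by 0.27 on the log2 scale. FURIN, which cleaves the receptor precursor, and the protease ADAM10 also rose, and are named after their values were seen. With the length trend removed ADAM10 was not called (log2 fold change 0.03; adjusted p 0.605, edgeR). Of 8 glycosylation genes 2 rose: LFNG, a Fringe enzyme that changes which ligands a receptor answers to, had 11.5 ± 0.957 CPM in co-treated and 8.67 ± 0.138 CPM in control libraries, and POGLUT3, an O-glucosyltransferase, rose by 0.19 on the log2 scale.

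Among 9 further genes of the nuclear complex 2 rose and 2 fell. The acetyltransferase KAT2B had 57.7 ± 2.66 CPM in co-treated and 46.2 ± 3.42 CPM in control libraries, and CDK8, a kinase that marks the Notch intracellular domain for destruction, rose by 0.24 on the log2 scale. The acetyltransferase KAT2A fell by 0.25, and so did CREBBP by 0.20, which is named after its value was seen. Of 13 tested corepressors 1 rose and 3 fell. TLE2, of the Groucho family, had 3.81 ± 0.207 CPM in co-treated and 5.11 ± 0.330 CPM in control libraries (log2 fold change -0.42 ± 0.10 SE; adjusted p 0.00865, edgeR). The deacetylase HDAC1 fell by 0.24, while the demethylase KDM5A, named after its value was seen, rose by 0.21 on the log2 scale. With the length trend removed KDM5A was not called (log2 fold change 0.08; adjusted p 0.178, edgeR), and 0 corepressors rose and 5 fell.

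Of 12 tested genes of turnover and trafficking 4 rose and none fell. DTX3L, a ubiquitin ligase of the Deltex family, had 40.6 ± 1.78 CPM in co-treated and 30.4 ± 1.35 CPM in control libraries, and overlaps PARP9 by 447 bases. MIB1, a ubiquitin ligase that makes ligands on the sending cell active by endocytosis, had 94.4 ± 2.45 CPM in co-treated and 74.4 ± 5.73 CPM in control libraries. NEURL1B, another ligase that acts on ligands, had 24.1 ± 1.40 CPM in co-treated and 19.3 ± 0.712 CPM in control libraries, and ITCH, named after its value was seen, also rose. With the length trend removed, DTX3L, MIB1 and NEURL1B stayed called and ITCH did not (adjusted p 0.0662, edgeR).

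Of 11 further tested genes that the list places among the targets 5 rose and 2 fell, with the largest changes in low HES genes. The role is that of the list, and whether Notch controls each of these genes in these cells was not tested. HES7, the oscillating repressor of the segmentation clock, had 2.31 ± 0.410 CPM in co-treated and 1.11 ± 0.0556 CPM in control libraries (log2 fold change 1.06 ± 0.17 SE; adjusted p 0.000947, edgeR). HES2, a less studied family member, had 4.40 ± 0.483 CPM in co-treated and 2.31 ± 0.394 CPM in control libraries, and HES6, which can oppose HES1, had 5.80 ± 0.524 CPM in co-treated and 4.01 ± 0.0984 CPM in control libraries. The remaining called genes of this role, named after their values were seen, are genes that many other pathways control. SOX9 rose by 0.32 and CCND1 by 0.13 on the log2 scale, while GATA3 fell by 0.49 and MYC fell by 0.53, to 125 ± 4.76 CPM in co-treated, against 180.03 ± 6.60 CPM in control libraries. With the length trend removed CCND1 was not called (log2 fold change 0.08; adjusted p 0.138, edgeR). NRARP, a feedback inhibitor of the pathway named after its value was seen, had 4.90 CPM in co-treated and 3.91 CPM in control libraries and was not called (adjusted p 0.0617, edgeR). Its groups did not overlap, against 23.3% of all tested genes wholly higher after co-treatment. With the length trend removed NRARP was called as higher (log2 fold change 0.34, adjusted p 0.0490, edgeR). HEY2, HEYL and SNAI2, also named after their values were seen, were not called with or without the length trend. As reported, their log2 fold changes were -0.03 (adjusted p 0.902, edgeR), 0.17 (adjusted p 0.189) and 0.08 (adjusted p 0.478).

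**Figure D4:**
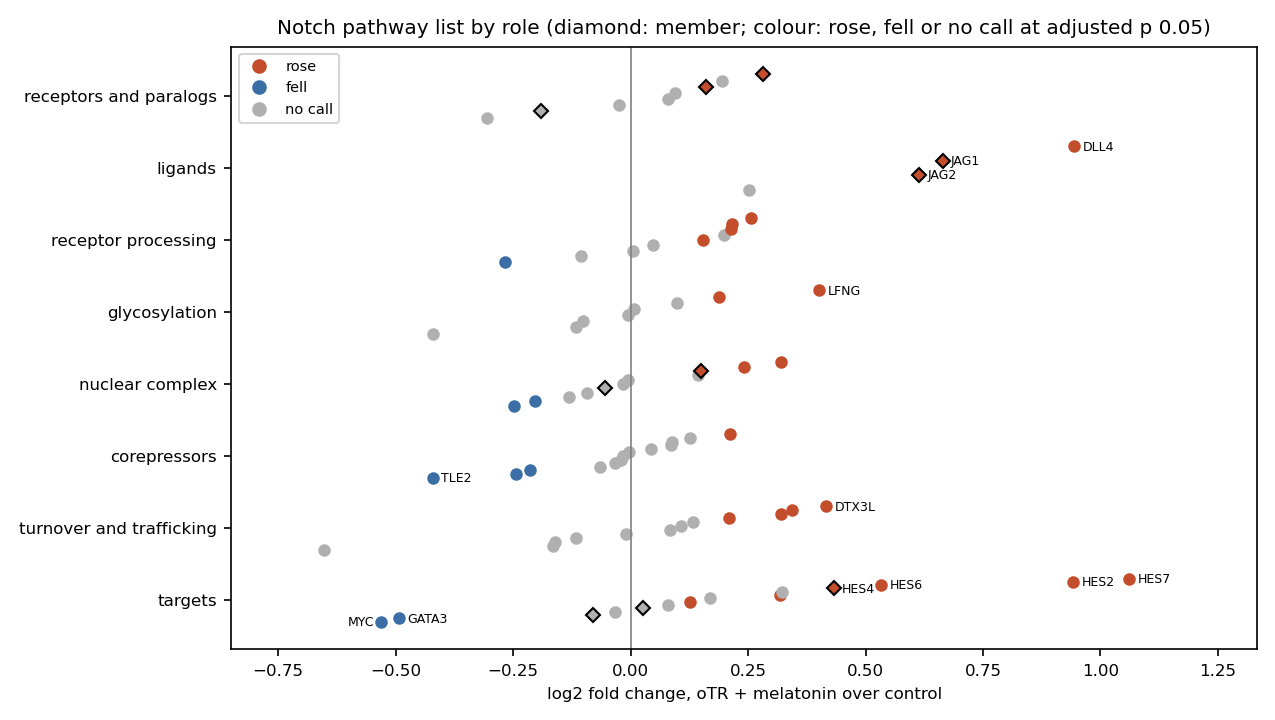
Log2 fold changes of the tested genes of the Notch list by role, oTR plus melatonin over control (diamonds, the 10 members; circles, other genes; red, rose; blue, fell; grey, no call). The called ligands lie at 0.61 to 0.94, all to the right of 0. Called genes that the list places among the targets lie on both sides of 0, from MYC at -0.53 to HES7 at 1.06.

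Of the 35 transcripts of the members, 31 passed the filter and none was called, against 0.00153% of 65252 transcripts (1 called). limma voom also called none of the 31, against 0.00307% of all (2 called). At an unadjusted p below 0.05 there were 5 of 31 member transcripts with edgeR (8.56% of all transcripts) and 6 with voom (9.96%). JAG1, HES1 (NM_005524) and MAML1 (NM_014757) each had 1 annotated transcript, and NM_000435 gave all of the NOTCH3 TPM. The JAG1 transcript NM_000214 held 2941, 2667 and 3893 estimated counts in co-treated libraries, against 1928, 2413 and 2204 in control libraries. Its log2 fold change was 0.68 ± 0.08 (SE), but its adjusted p was 0.139 over all transcripts (edgeR). In NOTCH1, NM_017617 gave over 97% of the TPM in every library, and in NOTCH2, NM_024408 gave over 99%. The few remaining NOTCH1 counts fell on the predicted transcript XM_011518717, with 75, 52 and 36 estimated counts in co-treated libraries, against 7, 11 and 0 in control libraries. Those counts were higher in each co-treated library, and the transcript was not called (adjusted p 0.567, edgeR).

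The shares of transcripts within JAG2, HES4, HEY1 and RBPJ varied between libraries of 1 group. In JAG2, NM_145159 gave 89.4%, 28.8% and 94.6% of the TPM in co-treated libraries, against 94.9%, 78.8% and 56.2% in control libraries. The remainder in co-treated replicate 2 was assigned to the non-coding XR_001750303. In HES4, NM_021170 gave 52.3%, 39.0% and 55.0% in co-treated libraries, against 62.5%, 51.4% and 63.5% in control libraries. These ranges overlapped. In HEY1, NM_012258 gave 69.6%, 89.8% and 93.6% in co-treated libraries, against 55.5%, 61.4% and 53.5% in control libraries, without overlap. The second HEY1 transcript, NM_001040708, held 31, 8 and 12 estimated counts in co-treated libraries, against 55, 55 and 68 in control libraries, so that these shares rest on few counts. In RBPJ, NM_203284 gave 46.8%, 41.2% and 30.9% in co-treated libraries, against 49.98%, 42.6% and 48.1% in control libraries. NM_001374400 of RBPJ was at 0 in all co-treated libraries and had 89, 1152 and 92 estimated counts in control libraries.

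A test of transcript usage (limma diffSplice, Simes p per gene) called none of the 6 members it could test, against 2.3% of 9961 genes. The adjusted p was 0.133 for HEY1, 0.192 for NOTCH1, 0.385 for RBPJ, 0.671 for HES4, 0.727 for NOTCH2 and 0.804 for JAG2, and the unadjusted p was below 0.05 for HEY1 (0.00725) and NOTCH1 (0.0162). With edgeR's diffSpliceDGE, which called 3.19% of genes, RBPJ was called (adjusted p 7.23e-05) and the others were not.

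**Figure D5:**
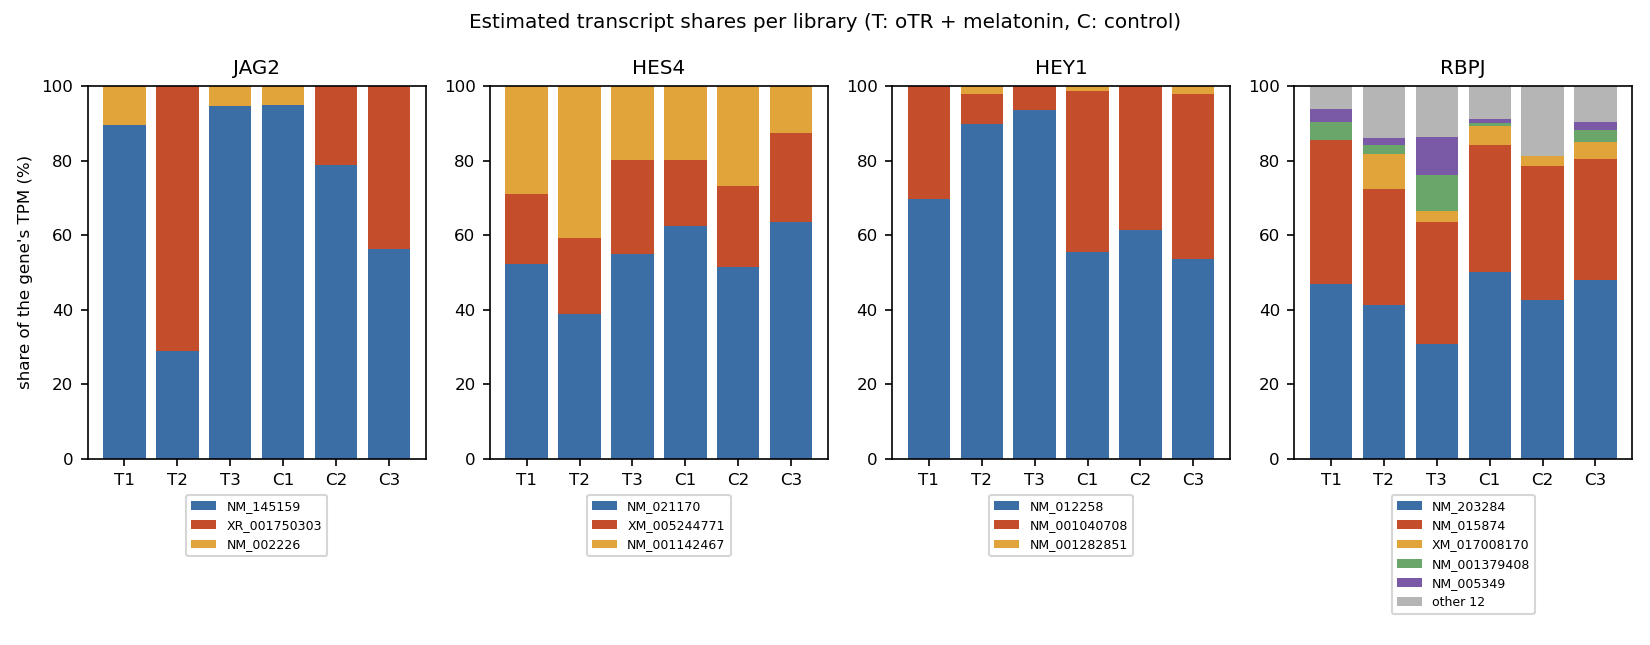
Share of each gene's TPM given by its transcripts (stacked bars, percent) in each library of JAG2, HES4, HEY1 and RBPJ (T1 to T3, oTR plus melatonin; C1 to C3, control). NM_145159 of JAG2 ranges between 28.8% and 94.6% within the co-treated libraries, while NM_012258 of HEY1 is above 69% in each co-treated library and below 62% in each control library.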

How the data were processed

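Total RNA of 3 co-treated and 3 control MDA-MB-231/RR samples, grouped by their titles, was sequenced. Trimmomatic 0.38, HISAT2 2.1.0, HISAT, Bowtie2, SAMtools 1.9, StringTie 2.1.3b and GRCh38 are named without roles, per the submitters' processing notes. The library kit, the strandedness and how RNA was selected were not given in the sources used here. Reads of overlapping genes may therefore be mixed; no annotated gene with more than 4 counts in a library overlapped a member. The authors deposited estimated counts, FPKM and TPM for genes and transcripts, per the file headers. The deposited counts are not whole reads: each of the 46427 genes equalled the sum of its transcripts, and 326878 of 326878 low transcript values equalled the deposited FPKM times length, rounded up (tolerance 0.06 counts). FPKM was used only for that check. Levels, shares and an alternative test used TPM, per the file headers. In the column names, Con was taken for control and Mo for melatonin with oTR, which the labels do not spell out. Gene spans and lengths come from the deposited transcript table, with lengths weighted by transcript.

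Estimated counts, deposited as whole numbers, were filtered with filterByExpr (minimum count 10; 16557 genes, 65252 transcripts) and tested with edgeR 4.0.16 (quasi-likelihood, relative log expression factors, which the labels name; R 4.3.3); p-values were adjusted by Benjamini-Hochberg and called below 0.05. Transcript usage was tested with limma 3.58.1 (voom, diffSplice). PCR duplicates cannot be seen in the tables. Alternatives were TMM factors, library size alone, library sizes without the 20 most abundant genes, DESeq2 1.42.0, voom, other filters, limma on log2(TPM + 1) and log2(TPM + 0.1), each library left out in turn, a block for the replicate number, and length and GC trends removed (a lowess curve per library, span 0.3, as offsets; GC content was found for 91.0% of tested genes). Estimated counts of 2 replicates of the same group were 11.7 to 19.5 times as dispersed as sampling of whole reads would give. The deposited counts are not whole reads and were scaled here by library total alone. The ratio therefore cannot tell how the libraries arose. All 6 libraries were kept as distinct samples, as their titles list them, which does not make them separate cultures.

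The members, the gene lists and the alternatives were chosen with earlier results of these data known. Named are all members, in each role of the wider list the called genes with the 3 largest absolute log2 fold changes at 1 CPM or more, the NOTCH2NL copies, and for each member the transcript with most counts; other genes and transcripts were chosen after their values were seen. Some genes that the rule names are not reported here. Motifs were searched in the RefSeq promoter table (GRCh38.p14).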

Additional observations from a re-analysis of the deposited data

How the results depend on the processing

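Of the 20 other settings run, JAG1 and JAG2 were called in 20, NOTCH1 in 19, NOTCH2 in 18, HES4 in 12, RBPJ in 11 and MAML1 in 1, while NOTCH3, HES1 and HEY1 were called in none. Besides the losses given with the results, HES4 lost its call without the count filter (adjusted p 0.0638) and on log2(TPM + 1) without a filter (adjusted p 0.119), and RBPJ without the count filter (0.0599) or after removal of the GC trend (0.378). NOTCH2 stayed called with each library left out (adjusted p at most 0.0463, edgeR). Between 4 and 6 members were called under every setting, and 4 to 5 with a library left out. Library size alone gave 3816 rising and 2065 falling genes and log2(TPM + 1) 4516 and 1339, against 2743 and 2835 as reported, and log2(TPM + 0.1) moved the median of all genes to 0.12.

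The sign turned, for values that were not called, in NOTCH3 without co-treated replicate 3 (-0.42 to 0.10 over the libraries left out), in HES1 without co-treated replicate 2 (-0.048 to 0.063), in HEY1 on log2(TPM + 1) (0.039, with or without a filter) and log2(TPM + 0.1) (0.055), and in MAML1 with library size alone (0.0036), the GC trend removed (0.015), log2(TPM + 1) (0.074, with or without a filter) and log2(TPM + 0.1) (0.075). RBPJ turned to -0.0043 with length and GC trends removed. Transcripts that turned were NM_000435 of NOTCH3 without co-treated replicate 3 (-0.39 to 0.11), NM_005524 of HES1 without co-treated replicate 2 (-0.035 to 0.080), NM_021170 of HES4 without co-treated replicate 1 (-0.0013 to 0.24) and NM_203284 of RBPJ without co-treated replicate 3 (-0.25 to 0.088). The causes were not tested.

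Whether the replicate numbers pair the libraries is not known. Same-numbered libraries correlated at 0.05, -0.0009 and -0.07, and not every library correlated best with its own number. With 3 libraries per group these correlations cannot exclude a pairing. With the replicate number as a block, 6 members, 6367 genes (5578 without it) and 36 genes of the list (33 without it) were called. Changed transcript usage was then called in 199 genes (229 without the block). Called transcripts numbered 1 as reported, 2 with voom, 0 with the replicate block and 0 to 1 with a library left out. The JAG1 transcript has the counts of its gene, and was not called in the fit over all transcripts (adjusted p 0.139, edgeR).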
